A study of Homo sapiens with 4 samples.

Results

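The response of 2 human hepatocellular carcinoma lines, Huh7 and PLC/PRF/5, to depletion of SCD was compared gene by gene. For each gene the response of a line was log2((knockdown TPM + 1)/(control TPM + 1)), where TPM is the length-scaled abundance of a transcript, and the line difference was the response of PLC/PRF/5 minus that of Huh7. A positive line difference means a higher knockdown-to-control ratio in PLC/PRF/5, and a negative one a higher ratio in Huh7. Genes were considered when they reached 5 TPM in at least 1 library of each line, which 9901 of 25343 listed genes did. The minimum was reached in at least 1 Huh7 library by 10959 genes, in at least 1 PLC/PRF/5 library by 10794 and in all 4 libraries by 9364.

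The series holds 4 RNA-seq libraries, 1 for each combination of line and arm. In the knockdown arm, cells of either line carried a lentiviral short hairpin RNA (shRNA) against SCD1, another name of SCD, labelled shSCD1#13. In the control arm they carried a lentiviral non-target control, NTC, and both arms of both lines were selected with puromycin as stable populations and grown in DMEM-HG with FBS. A single shRNA was used in the libraries compared here, so an effect of the hairpin on other transcripts cannot be told apart from an effect of losing SCD. With 1 library per group there was no replicate spread, so no difference below was tested, and folds of 2 or 1.5 are size rules only. The labels do not say whether libraries came from more than 1 transduction or culture.

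SCD encodes stearoyl-CoA desaturase, the enzyme of the endoplasmic reticulum (ER) that turns saturated into monounsaturated fatty acids, which cells use for membrane lipids, triglycerides and cholesteryl esters. Cells sense their membrane lipids in part through the ER. The SREBP2 pathway, held in check by the INSIG proteins, adjusts genes of cholesterol synthesis and uptake, and the unfolded protein response, with the sensors ATF6, IRE1 and PERK, adjusts chaperones and the degradation of misfolded proteins. Hepatocyte-derived cells also make large amounts of secreted plasma proteins, which pass through the same compartment.

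Between 17405 and 17931 genes were listed above 0 TPM in a library, and the 20 most abundant genes took 9.22% to 10.9% of all TPM. TPM carries no sequencing depth, so the depth of the libraries is unknown and no counting interval was computed. Of 11 hepatocyte and hepatoma markers, 9 were at 5 TPM or more in all 4 libraries. The lines differ in their liver character: TTR (transthyretin) was at 371 against 312 TPM (control against knockdown, as in all such pairs) in Huh7 but at 0.41 against 0.16 TPM in PLC/PRF/5, and EPCAM at 50.1 against 131 TPM in Huh7 but at 0.11 TPM and listed at 0 in PLC/PRF/5. Of the markers of other cell types, KDR (endothelial) and HBB (erythroid) were listed at 0 in all libraries, and PTPRC (leukocytes) and DCN (fibroblasts) stayed at or below 0.99 TPM. Others of the same types were higher. CD68 (leukocytes) was at 8.76 against 9.71 TPM in Huh7 and 26.96 against 13.01 TPM in PLC/PRF/5. PDGFRB (fibroblasts) was at 10.21 against 4.96 TPM in Huh7, and PECAM1 (endothelial) at 3.35 against 1.44 TPM in PLC/PRF/5. Summed fibroblast markers were at 24.9 against 68.0 TPM in Huh7 and at 3.47 against 2.49 TPM in PLC/PRF/5, and LUM alone was at 10.8 against 60.04 TPM in the Huh7 pair; the part of such markers in the results was not tested. In bulk libraries of selected populations, a shift in which cells survived and a shift in RNA per cell cannot be told apart.

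The knockdown libraries of both lines had less of the targeted gene. In Huh7, SCD was at 1755 against 137 TPM (control against knockdown), a response of -3.67, and in PLC/PRF/5 at 1111 against 178 TPM, a response of -2.64. The depletion was thus deeper in Huh7, and the line difference of SCD itself, 1.03, is past 2-fold. How far the unequal depletion goes with the other line differences was not tested. SCD5, the other human desaturase gene of this kind, stayed below 5 TPM in both Huh7 libraries (3.51 against 2.86 TPM) and was at 3.71 against 5.28 TPM in PLC/PRF/5, so it was not among the genes considered.

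Most line differences were small, and so were most responses. The middle 50% of responses lay between -0.11 and 0.27 in Huh7 and between -0.09 and 0.28 in PLC/PRF/5. Small line differences therefore do not show that the lines responded alike. The middle 50% of line differences lay between -0.16 and 0.20, with a median of 0.03, and the 1st and 99th percentiles were -1.28 and 0.91. At least 2-fold above Huh7 stood 76 genes, 0.768% of the genes considered, and at least 2-fold below it 165 genes, 1.67%, together 241 genes or 2.43%. At 1.5-fold the numbers were 333 genes above (3.36%) and 514 below (5.19%). Of the 165 genes below, 89 were at least 2-fold higher in the Huh7 knockdown and 34 at least 2-fold lower in the PLC/PRF/5 knockdown. Of the 76 genes above, 24 were at least 2-fold lower in Huh7 and 25 at least 2-fold higher in PLC/PRF/5. In both sets some genes reached 2-fold only through the sum of 2 smaller responses, 29 of the 76 and 45 of the 165.

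Within a single line, 209 genes (2.11%) were higher by 2-fold or more in the Huh7 knockdown and 81 (0.818%) lower by as much, against 105 (1.06%) and 84 (0.848%) in PLC/PRF/5. Shared by both lines were 35 of the higher genes (0.353%) and 23 of the lower (0.232%). Responses of opposite sign, most of them small, were found for 2977 genes (30.1%). Both responses were at least 1.5-fold and opposite in 38 genes (0.384%). Low levels enter these counts: 22 of the 76 and 60 of the 165 were below 5 TPM in at least 1 library, and a gene that passed the minimum in 1 arm only had to differ between arms. Of the genes at 5 TPM or more in all 4 libraries, 54 stood above and 105 below. By mean level, 4.45% of genes under 10 TPM differed 2-fold between lines, 2.25% of those from 10 to 50 TPM, 1.85% from 50 to 200 TPM and 3.69% of the 814 genes at 200 TPM or more.

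**Figure D1:**
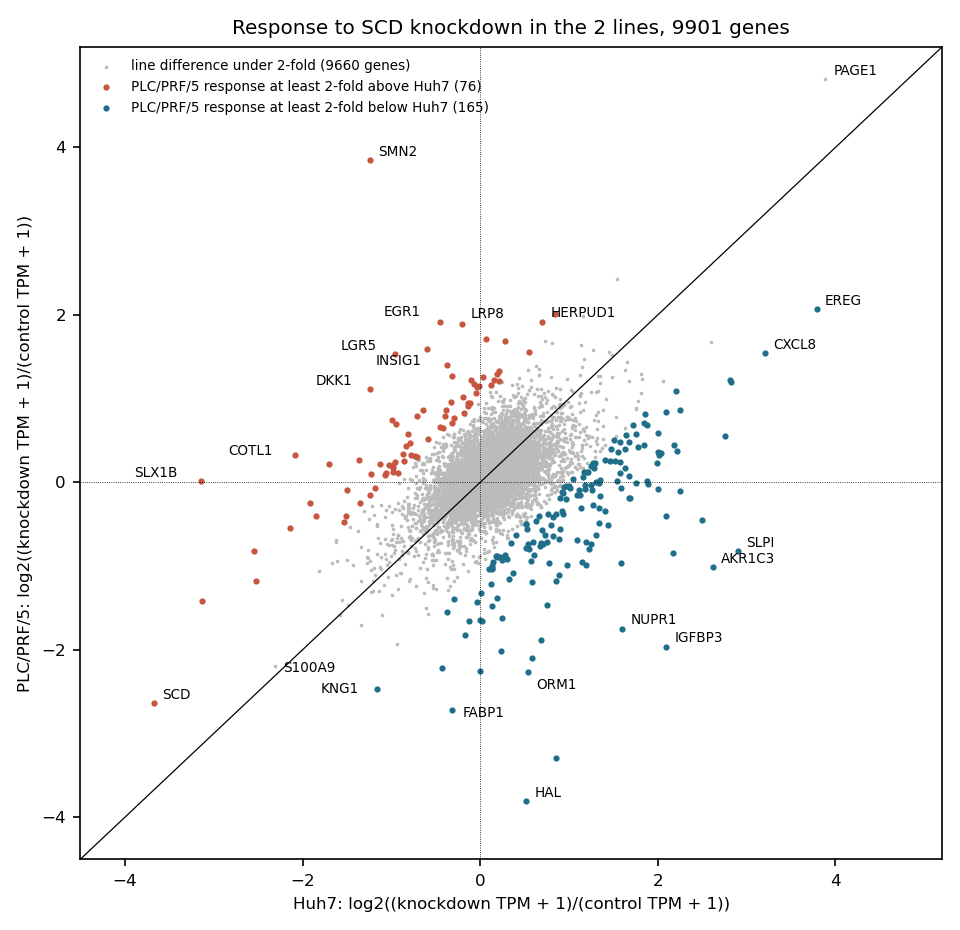
Response to SCD knockdown in Huh7 (x axis) and PLC/PRF/5 (y axis), each as log2((knockdown TPM + 1)/(control TPM + 1)), with 1 point per gene for 9901 genes and a diagonal where both lines are equal. Orange points are the 76 genes at least 2-fold above Huh7 and blue points the 165 at least 2-fold below, which extend furthest along the side where Huh7 was higher.

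Opposite responses of at least 2-fold each were found for 5 genes (0.0505%). IGFBP3, a secreted binding protein of insulin-like growth factors, was at 8.73 against 40.5 TPM in Huh7 and 81.4 against 20.2 TPM in PLC/PRF/5, with responses of 2.09 and -1.96. NUPR1, a small stress-induced chromatin protein, was at 3.36 against 12.2 TPM in Huh7 and 132 against 38.7 TPM in PLC/PRF/5. AKR1C3, an aldo-keto reductase of steroid and prostaglandin metabolism, was at 4.21 against 30.99 and 72.01 against 35.2 TPM. In these 3 genes the PLC/PRF/5 control was the highest library and the Huh7 control the lowest, and the knockdown libraries lay between them. DKK1, a secreted inhibitor of Wnt signalling, went the other way, at 58.6 against 24.2 TPM in Huh7 and 43.01 against 94.02 TPM in PLC/PRF/5, with the PLC/PRF/5 knockdown highest. The fifth, SMN2, is nearly identical in sequence to SMN1 and is taken up with other gene copies further on. At 5 TPM or more in all 4 libraries, IGFBP3 and DKK1 were the only genes of this kind. NUPR1 and AKR1C3 passed the minimum in Huh7 through the knockdown library alone, so a positive Huh7 response was built in.

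**Figure D2:**
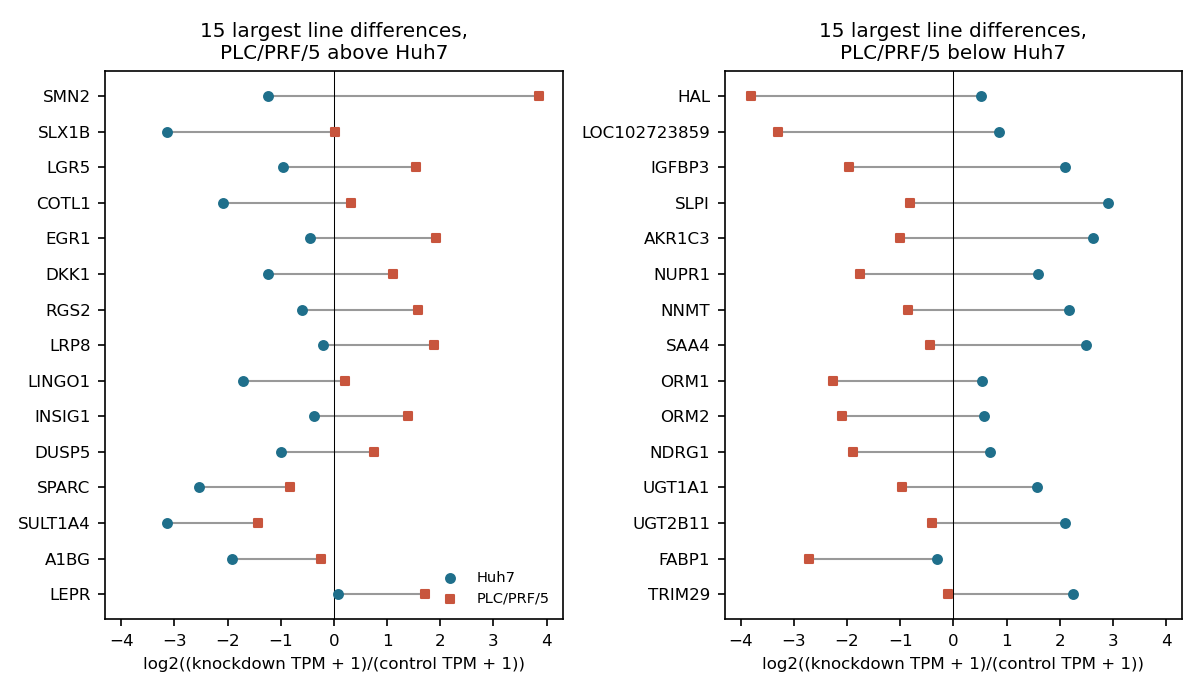
Responses of the 15 genes with the highest line difference (left) and the 15 with the lowest (right), in log2 units, with Huh7 as circles and PLC/PRF/5 as squares. Most pairs straddle 0, so the largest line differences joined responses of opposite sign.

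Genes of sterol synthesis and uptake sat higher in the PLC/PRF/5 knockdown and slightly lower in the Huh7 knockdown. Of 25 genes listed, 24 were considered, 22 had a positive line difference (54.3% of all genes did), and 9 were at least 1.5-fold and 4 at least 2-fold above Huh7, with none below. The median response was -0.16 in Huh7 and 0.33 in PLC/PRF/5, and the median line difference was 0.51, beside 0.07, 0.09 and 0.03 over all genes. Signs were opposite in 21 of the 24 genes, and in 18 after median-ratio scaling, a rescaling under which the median response of all genes is -0.03 rather than 0.07 in Huh7 and -0.05 rather than 0.09 in PLC/PRF/5.

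Genes past 2-fold included the regulator INSIG1, the carrier STARD4 and the enzyme HSD17B7. INSIG1, which holds the SREBP precursors in the ER when sterols are plentiful, was at 164 against 126 TPM in Huh7 and at 65.97 against 175 TPM in PLC/PRF/5, a line difference of 1.78. The lowest and the highest libraries were thus the arms of PLC/PRF/5. STARD4, a cytosolic sterol carrier, had responses of -0.14 in Huh7 and 0.91 in PLC/PRF/5. Among the enzymes, HMGCS1, which makes HMG-CoA, was at 645 against 608 TPM in Huh7 and 114 against 184 TPM in PLC/PRF/5, a line difference of 0.77. IDI1, the isopentenyl diphosphate isomerase, and HSD17B7, a ketosteroid reductase of the same route, were lower in the Huh7 knockdown (-0.42 and -0.59) and higher in that of PLC/PRF/5 (0.42 and 0.52). SREBF2, the gene of SREBP2 itself, was below Huh7 (-0.28). LRP8, a lipoprotein receptor that binds apolipoprotein E and reelin, lies outside the list and was at 13.2 against 11.4 TPM in Huh7 but 16.9 against 65.3 TPM in PLC/PRF/5.

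Genes of fatty acid and glycerolipid synthesis were divided. Of 28 listed, 25 were considered; the median line difference was 0.26, 15 were positive, 5 at least 1.5-fold above Huh7 and 1 at least 1.5-fold below. The median response was -0.13 in Huh7 and 0.01 in PLC/PRF/5, or -0.23 and -0.13 after median-ratio scaling. DGAT1, which adds the last acyl chain to a triglyceride, was at 49.5 against 20.6 TPM in the Huh7 pair and 21.96 against 23.6 TPM in the PLC/PRF/5 pair, so it was lower in Huh7 alone. DGAT2, the other enzyme of this step, had the list's lowest line difference (-0.71), with 67.5 against 78.8 TPM in Huh7 and 8.22 against 5.58 TPM in PLC/PRF/5. LPIN1, a phosphatidate phosphatase, was at 25.7 against 20.4 TPM in Huh7 and 11.3 against 22.99 TPM in PLC/PRF/5, lower in one pair and higher in the other. ACSL3 and ACSS2, which activate fatty acids and acetate to their CoA esters, and the acyltransferase GPAM were lower in the Huh7 knockdown, with responses of -0.76, -0.65 and -0.71, against 0.02, 0.01 and -0.15 in PLC/PRF/5. The desaturases FADS1 and FADS2 were lower in both lines, by more in Huh7 (-0.80 and -1.15) than in PLC/PRF/5 (-0.35 and -0.66). FASN, the fatty acid synthase, was at 694 against 545 TPM in Huh7 and 323 against 401 TPM in PLC/PRF/5.

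Of 30 listed genes of fatty acid oxidation and transport, 19 were considered and 3 had a positive line difference, with a median of -0.18. The list's extremes were FABP1 and PLIN2. FABP1, the liver fatty acid binding protein, was at 761 against 612 TPM in Huh7 and 23.1 against 2.64 TPM in PLC/PRF/5, far lower in the second line to begin with and lower again in its knockdown. It passed the minimum in PLC/PRF/5 through the control library alone, so a negative response there was built in. PLIN2, a lipid droplet coat protein, was at 173 against 221 TPM in Huh7 and 106 against 63.6 TPM in PLC/PRF/5, with responses of 0.35 and -0.72. The mitochondrial trifunctional protein genes HADHA and HADHB differed little between lines, with -0.05 and -0.04.

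ER chaperones and folding enzymes mostly had a higher knockdown-to-control ratio in PLC/PRF/5 than in Huh7. Of 24 listed genes, 23 were considered, 21 had a positive line difference, 6 were at least 1.5-fold above Huh7 and 1 at least 1.5-fold below. The medians were -0.09 in Huh7, 0.29 in PLC/PRF/5 and 0.45 for the line difference, or -0.19, 0.14 and 0.40 after median-ratio scaling, and 13 genes had opposite signs under both. HSPA5 (BiP), the main ER chaperone and the regulator of the 3 stress sensors, was at 569 against 501 TPM in Huh7 and 775 against 1383 TPM in PLC/PRF/5. HSP90B1 (GRP94) was at 1108 against 950.4 and 1226 against 1560.3 TPM, and CALR (calreticulin) at 1554 against 1295 and 1231 against 1479.8 TPM. All 3 were lower in the Huh7 knockdown and higher in that of PLC/PRF/5. MANF and CRELD2, small secreted ER stress proteins, had line differences of 0.98 and 0.77. DNAJB9, a co-chaperone of HSPA5, was higher in both lines (0.62 in Huh7 and 1.39 in PLC/PRF/5). PDIA5 went against the rest, with responses of -0.50 and -1.28, and TXNDC5, which was lower in both lines, shares most of its sequence with another gene and is uncertain.

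ER-associated degradation and translocation genes had 27 of 28 members considered, 22 with a positive line difference and a median line difference of 0.27. Their median response was 0.29 in PLC/PRF/5 and 0.05 in Huh7, or 0.14 and -0.05 after median-ratio scaling. HERPUD1, a membrane protein of the degradation complex, was the widest, at 54.9 against 89.5 TPM in Huh7 and 79.2 against 303 TPM in PLC/PRF/5, higher in both knockdowns and more so in the second. SELK (selenoprotein K), SEC24D (a coat protein of vesicles leaving the ER) and SEL1L (the adaptor of the ubiquitin ligase) responded by 0.04, -0.07 and -0.05 in Huh7, whereas the PLC/PRF/5 values were 0.84, 0.75 and 0.52.

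The transcripts of the sensors and factors of the unfolded protein response went both ways. The median line difference of 11 genes was 0.06, with 6 positive and 5 negative, from -0.93 to 0.62. ATF6 had 0.06, ERN1 (IRE1) 0.095, EIF2AK3 (PERK) 0.39 and XBP1 0.22. CREB3L2 had the highest, 0.62, with responses of -0.47 in Huh7 and 0.15 in PLC/PRF/5. CREB3L3, a liver ER-bound factor of lipid metabolism, had the widest gap of the list, at 32.04 against 29.03 TPM in Huh7 and 102 against 48.4 TPM in PLC/PRF/5. The integrated stress response, which runs through ATF4, had a median line difference of 0.01 over 31 of 32 genes, -0.04 after median-ratio scaling. In that list NUPR1 was the only gene past 2-fold between lines. ATF4 itself had responses of 0.26 and 0.04, and ATF3 was higher in both lines (1.63 and 1.34). DDIT3 (CHOP) was at 19.7 against 29.9 TPM in Huh7 and 43.8 against 104 TPM in PLC/PRF/5, and SLC7A11, the cystine transporter, was lower mainly in Huh7 (-1.12 against -0.27). The heat shock list had a median line difference of -0.03 over 18 genes, among them the mitochondrial HSPA9, HSPD1 and HSPE1 and the factor HSF1.

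Promoters of several ER genes hold elements through which ATF6 and XBP1 are known to act, and these sequences are shown for HSPA5, HSP90B1, CALR, CRELD2, HERPUD1 and HYOU1, ER genes picked after their values were seen. The ER stress element (ERSE) was searched on both strands as CCAAT and CCACG with 9 bases of any kind between them, and its relative ERSE-II as ATTGG and CCACG with 1 base between them. Both contain the CCAAT box of NF-Y, so a match to either is also a match to that box. Among the 250 bases before the RefSeq start (GRCh38.p14) of 27305 genes, the first was found in 25 (0.0916%) and the second in 18 (0.0659%). Among the 7634 genes considered that have such a sequence, 14 and 12 held a match. The 14 had a median line difference of 0.25, with 12 positive, and the 12 a median of 0.12, with 8 positive, beside 0.03 over all genes considered. In the PLC/PRF/5 knockdown none of the 14 was lower, but XBP1 was level (0.01). Of the 12, 5 were lower, namely CAMTA1, GYS1, NUCB1, PLS3 and RUVBL2. These counts depend on the scaling and were not repeated under another. Median-ratio scaling moved the median PLC/PRF/5 response of all genes from 0.09 to -0.05. The responses of XBP1, TMEM120A (0.05) and EIF2A (0.07), all of the 14, were smaller than that shift. Over all genes considered, the PLC/PRF/5 response had a lower quartile of -0.09 and a median of 0.09, so many of them were lower. CALR, CANX, CRELD2, HSP90B1, HSPA5 and PDIA6 of the 14, and HYOU1 and SDF2L1 of the 12, belong to the ER chaperone list above. For these genes the counts repeat the result of that list. Matches with little or a negative line difference included CANX (0.05), SYNPO (-0.62) and PLS3 (-0.35). A match describes letters in a window and was not tested as a site. In the sequences, 5′ to 3′ on the gene's strand, capitals mark the matched element, or its reverse complement where the match is on the opposite strand. They lie at chr9:125241344-125241593 (HSPA5, minus strand, 1 ERSE), chr12:103930160-103930409 (HSP90B1, plus strand, 2 ERSE, 1 of them on the opposite strand), chr19:12938359-12938608 (CALR, plus strand, 1 ERSE on the opposite strand), chr22:49918384-49918633 (CRELD2, plus strand, 1 ERSE on the opposite strand), chr16:56931892-56932141 (HERPUD1, plus strand, 1 ERSE-II) and chr11:119057206-119057455 (HYOU1, minus strand, 2 ERSE-II, both on the opposite strand).
HSPA5: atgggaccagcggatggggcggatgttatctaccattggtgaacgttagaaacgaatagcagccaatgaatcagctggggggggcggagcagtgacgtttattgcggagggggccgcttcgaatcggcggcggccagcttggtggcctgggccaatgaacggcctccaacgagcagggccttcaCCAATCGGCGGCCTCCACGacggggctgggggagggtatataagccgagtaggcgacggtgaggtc
HSP90B1: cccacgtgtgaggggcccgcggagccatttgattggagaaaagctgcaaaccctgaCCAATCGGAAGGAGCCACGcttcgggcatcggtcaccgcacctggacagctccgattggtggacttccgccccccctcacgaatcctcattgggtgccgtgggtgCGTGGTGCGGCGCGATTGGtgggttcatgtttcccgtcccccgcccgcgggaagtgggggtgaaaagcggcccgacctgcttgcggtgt
CALR: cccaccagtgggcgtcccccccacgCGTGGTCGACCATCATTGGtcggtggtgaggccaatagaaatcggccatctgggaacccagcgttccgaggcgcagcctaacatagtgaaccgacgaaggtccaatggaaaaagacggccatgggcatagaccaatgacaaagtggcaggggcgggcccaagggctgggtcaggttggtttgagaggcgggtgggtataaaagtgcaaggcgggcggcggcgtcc
CRELD2: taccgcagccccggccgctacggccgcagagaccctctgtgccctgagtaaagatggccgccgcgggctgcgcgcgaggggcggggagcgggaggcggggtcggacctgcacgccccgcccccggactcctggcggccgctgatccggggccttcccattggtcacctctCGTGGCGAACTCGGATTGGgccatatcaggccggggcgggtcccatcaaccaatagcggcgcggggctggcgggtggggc
HERPUD1: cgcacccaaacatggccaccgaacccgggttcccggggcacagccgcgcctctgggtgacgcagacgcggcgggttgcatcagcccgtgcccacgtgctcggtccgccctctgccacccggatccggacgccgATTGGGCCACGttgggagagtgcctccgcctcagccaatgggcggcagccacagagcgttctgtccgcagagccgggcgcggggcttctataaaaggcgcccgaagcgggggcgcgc
HYOU1: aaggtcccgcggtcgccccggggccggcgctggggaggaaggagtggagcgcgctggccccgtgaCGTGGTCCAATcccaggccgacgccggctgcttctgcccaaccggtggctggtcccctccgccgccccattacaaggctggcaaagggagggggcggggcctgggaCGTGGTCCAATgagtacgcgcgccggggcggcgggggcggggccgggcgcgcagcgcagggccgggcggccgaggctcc

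HYOU1, an ER chaperone of the HSP110 family, was at 227 against 177 TPM in Huh7 and 440.4 against 508 TPM in PLC/PRF/5, and CRELD2 at 42.5 against 46.6 and 56.7 against 107 TPM. Beside the values of HSPA5, HSP90B1, CALR and HERPUD1 above, the 6 genes picked were higher in the PLC/PRF/5 knockdown, while 4 of them were lower in the Huh7 knockdown. The exceptions were CRELD2 and HERPUD1, which were higher in both.

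**Figure D3:**
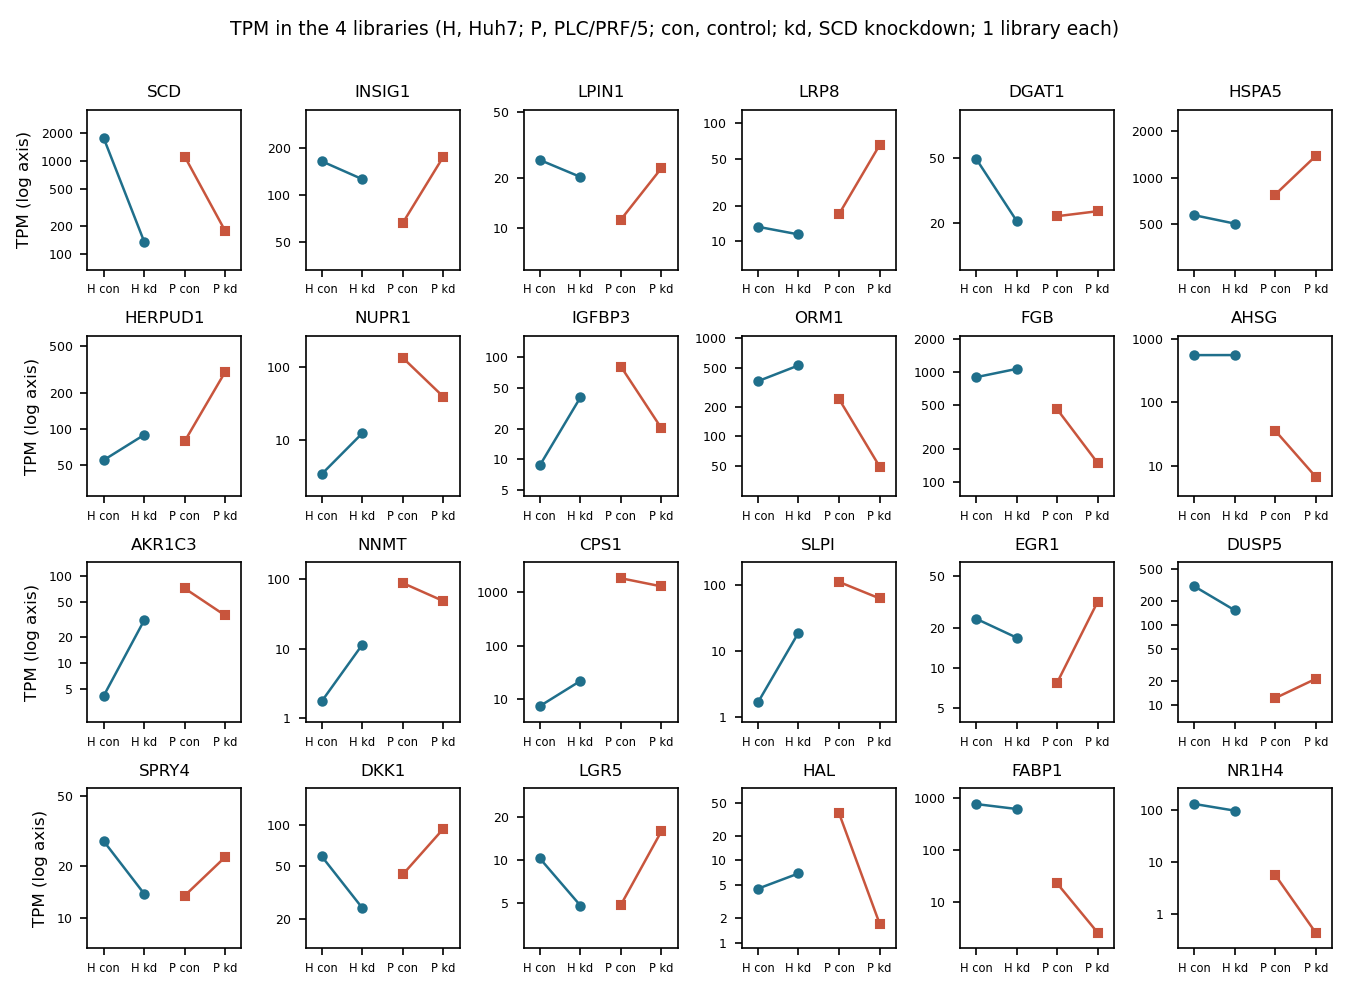
TPM of 24 genes in the 4 libraries, on log axes with a separate scale in each panel, with the Huh7 control and knockdown as joined circles and the PLC/PRF/5 control and knockdown as joined squares. SCD descends in both lines, while INSIG1, HSPA5, EGR1 and LGR5 descend in Huh7 and ascend in PLC/PRF/5, and IGFBP3, NUPR1, AKR1C3 and CPS1 do the reverse.

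Plasma carriers, coagulation factors and apolipoproteins, which the liver secretes, were mostly lower in the PLC/PRF/5 knockdown and less so, or not at all, in that of Huh7. Of 36 plasma carriers and acute-phase proteins listed, 17 were considered, with a median line difference of -0.87. Of these, 11 were at least 1.5-fold and 7 at least 2-fold below Huh7, and 2 and 1 above. Their median response was -0.73 in PLC/PRF/5 and 0.00 in Huh7, or -0.87 and -0.10 after median-ratio scaling. Orosomucoid, encoded by ORM1 and its near-identical copy ORM2, carries basic drugs in plasma. ORM1 was at 365 against 528 TPM in Huh7 and 239.7 against 49.1 TPM in PLC/PRF/5, and ORM2 at 203 against 304 and 41.2 against 8.86 TPM, and how reads were shared between the copies is uncertain. AHSG, which encodes fetuin-A, was level in Huh7 (550.0 against 551 TPM) and lower in the PLC/PRF/5 knockdown (35.7 against 6.73 TPM). ALB (albumin) was higher in one pair and lower in the other, at 6498 against 10479 and 69.3 against 41.5 TPM. CP (ceruloplasmin), the copper carrier, was at 64.3 against 79.4 TPM in Huh7 and 433 against 228 TPM in PLC/PRF/5. AFP (alpha-fetoprotein) and TF (transferrin) were lower in both lines, less so in Huh7 (-0.58 and -0.61) than in PLC/PRF/5 (-1.20 and -1.14). A1BG was the exception past 2-fold, at 17.1 against 3.79 TPM in Huh7 and 6.45 against 5.27 TPM in PLC/PRF/5. It passed the minimum in Huh7 through the control library alone, so a negative Huh7 response was built in. ALB, AHSG and AFP were also far lower in the PLC/PRF/5 control than in the Huh7 control, and the part of that level in the line differences was not tested.

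Coagulation and fibrinolysis genes had 16 of 32 members considered, medians of 0.28 in Huh7, -0.54 in PLC/PRF/5 and -0.74 for the line difference, and 10 members at least 1.5-fold below Huh7 with none above. FGB, the fibrinogen beta chain, was at 901 against 1073 TPM in Huh7 and 459 against 149 TPM in PLC/PRF/5. The alpha and gamma chains, FGA and FGG, had smaller line differences (-0.41 and -0.47). F2 (prothrombin) was at 153 against 125 TPM in Huh7 and 102 against 38.4 TPM in PLC/PRF/5. KNG1 (kininogen) was lower in both lines, with responses of -1.16 and -2.47, and SERPINF2, the inhibitor of plasmin, had 0.25 and -0.93. F7 and F10, vitamin K-dependent factors, were higher in the Huh7 knockdown (0.31 and 0.40) and lower in that of PLC/PRF/5 (-0.66 and -0.63). HABP2, a plasma protease, was higher in both (2.60 and 1.68).

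Of 22 apolipoprotein and lipoprotein assembly genes, 11 were considered, with a median line difference of -0.54, which was -0.11 with no filter. APOC2, the activator of lipoprotein lipase, was at 572 against 556 TPM in Huh7 and 5.08 against 1.26 TPM in PLC/PRF/5, APOE at 1186 against 900.2 and 633 against 321 TPM, and LIPC (hepatic lipase) at 100.1 against 159.6 and 91.9 against 53.8 TPM. Each was lower in the PLC/PRF/5 knockdown, whereas in Huh7 LIPC was higher and APOE lower. APOC2 passed the minimum in PLC/PRF/5 through the control library alone, so a negative response there was built in. Going the other way were APOM, with -0.76 in Huh7 and 0.19 in PLC/PRF/5, and LCAT, which esterifies cholesterol in plasma, at 17.8 against 20.7 and 2.93 against 8.12 TPM. LCAT passed in PLC/PRF/5 through the knockdown library alone, so a positive response there was built in. APOB and MTTP, needed to assemble very-low-density lipoprotein, had line differences of 0.29 and -0.26. All 7 complement genes considered, of 33 listed, had a negative line difference, with a median of -0.37. C3, the central complement protein, was at 286 against 724 TPM in Huh7 and 494 against 401 TPM in PLC/PRF/5, and SERPING1, the C1 inhibitor, at 405 against 462 and 5.78 against 1.60 TPM. SERPING1 passed in PLC/PRF/5 through the control library alone, so a negative response there was built in.

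Among the transcription factors of hepatocytes the median line difference of 21 genes was -0.05, with 4 at least 1.5-fold below Huh7 and 1 above, the T-box factor TBX3 (0.86). HNF4A and FOXA2 had -0.13 and 0.08, and FOXA1 and GATA4 -0.59 and -0.45. NR1H4 (FXR), the bile acid receptor, was at 133 against 99.01 TPM in Huh7 and 5.68 against 0.44 TPM in PLC/PRF/5. It passed the minimum in PLC/PRF/5 through the control library alone, so a negative response there was built in. CEBPD, an acute-phase factor, was at 33.1 against 114 TPM in Huh7 and level in PLC/PRF/5 at 47.8 against 47.3 TPM, and CEBPA, its relative of the differentiated hepatocyte, at 444 against 349.8 and 98.3 against 48.4 TPM. These 3 had the list's lowest line differences.

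Among 14 considered of 32 genes of hepatic amino acid and carbohydrate metabolism the median line difference was -0.27, and 2 were positive. HAL, the histidine ammonia-lyase, had the lowest line difference of all 9901 genes (-4.33), at 4.56 against 6.97 TPM in Huh7 and 37.2 against 1.73 TPM in PLC/PRF/5. It passed the minimum through the Huh7 knockdown and the PLC/PRF/5 control alone, and a gene that passes in this way has a negative line difference. A pair of urea cycle enzymes stood apart too. CPS1, the carbamoyl phosphate synthetase, was at 7.41 against 21.8 TPM in Huh7 and 1799 against 1267 TPM in PLC/PRF/5, and ASS1, the argininosuccinate synthetase, at 41.8 against 72.4 and 953 against 488 TPM. They were higher in the Huh7 knockdown from a much lower level and lower in that of PLC/PRF/5. The next enzyme, ASL, had a line difference of -0.12.

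Genes of bile acid, P450 and conjugation enzymes had 16 of 53 members considered, a Huh7 median of 0.46, a PLC/PRF/5 median of -0.65, and a median line difference of -0.90. Of the 16, 10 were at least 1.5-fold and 7 at least 2-fold below Huh7, and none above. Beside AKR1C3, its relatives AKR1C2 and AKR1C1, which share sequence with each other, had line differences of -2.18 and -0.90. NNMT, the nicotinamide N-methyltransferase, was at 1.75 against 11.4 TPM in Huh7 and 87.5 against 48.2 TPM in PLC/PRF/5. UGT1A1, the bilirubin glucuronosyltransferase, which shares exons with the other UGT1A genes, was at 1.38 against 6.12 and 88.5 against 44.9 TPM. BAAT, which joins bile acids to glycine or taurine, was higher in both lines, at 0.29 against 8.06 TPM in Huh7 and 2.10 against 6.26 TPM in PLC/PRF/5. It passed the minimum through the knockdown libraries alone, and a gene that passes in this way is higher in both. Several members were low in a Huh7 library. Among those past 2-fold, AKR1C3, NNMT, UGT1A1 and BAAT passed the minimum in Huh7 through the knockdown library alone. For them a positive Huh7 response was built in. GSTM1 passed in PLC/PRF/5 through the control library alone, so a negative response there was built in. Over the members at 5 TPM or more in all 4 libraries the median was -0.51. GPX2, a glutathione peroxidase of the gut and liver, was at 114 against 261 TPM in Huh7 and 361 against 219 TPM in PLC/PRF/5, while the NRF2, iron and glutathione list to which it belongs had a median line difference of -0.02 over 25 genes.

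**Figure D4:**
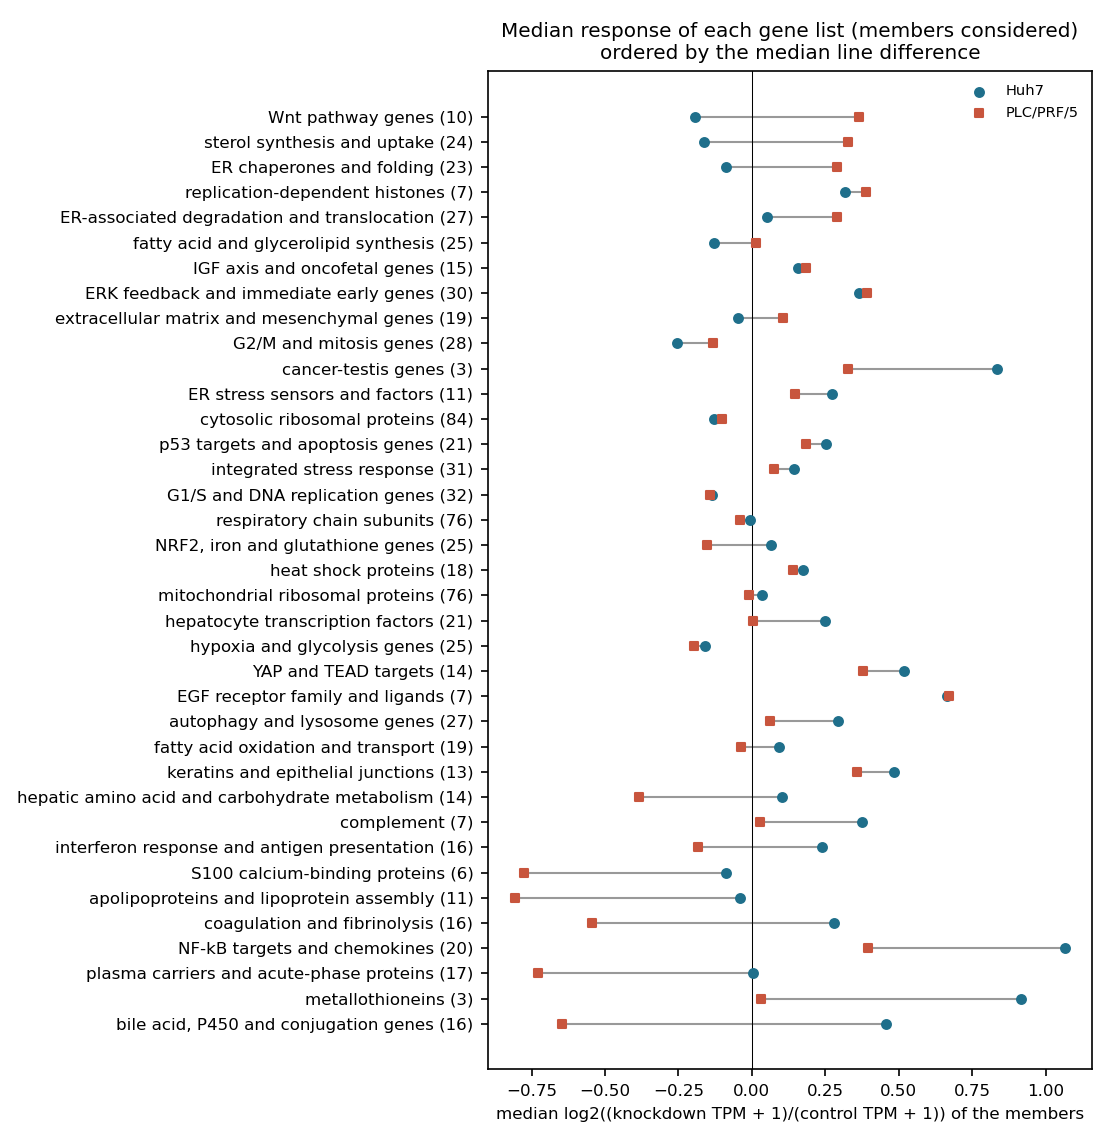
Median response to SCD knockdown, in log2 units, of the gene lists in Huh7 (circles) and PLC/PRF/5 (squares), with the number of genes considered in each. Lists of secreted liver proteins and conjugation enzymes show PLC/PRF/5 to the left of Huh7, sterol genes, ER chaperones and Wnt genes show it to the right, and the G1/S and ribosomal lists lie close together.

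Of 33 NF-kB targets and chemokines listed, 20 were considered; 18 were higher in the Huh7 knockdown and 12 in that of PLC/PRF/5, where the other 8 were lower. They had medians of 1.06 in Huh7, 0.40 in PLC/PRF/5 and -0.77 for the line difference. At least 1.5-fold below Huh7 were 13, at least 2-fold below were 9, and none was 1.5-fold above. Among those past 2-fold, SLPI, CXCL3 and LTB passed the minimum in Huh7 through the knockdown library alone, so a positive Huh7 response was built in. Over the members at 5 TPM or more in all 4 libraries the median line difference was -0.70. CXCL8, a chemokine for neutrophils, was at 39.7 against 375 TPM in Huh7 and 432 against 1257 TPM in PLC/PRF/5, so it was higher in both knockdowns, and the PLC/PRF/5 control was already above the Huh7 knockdown. CXCL1 was at 42.97 against 105 TPM in Huh7 and 373 against 309 TPM in PLC/PRF/5, and IL32 at 82.02 against 219.6 and 393 against 474 TPM. SLPI, an inhibitor of leukocyte proteases, was at 1.65 against 18.9 TPM in Huh7 and 111 against 62.6 TPM in PLC/PRF/5, the widest gap of the list. Among the feedback inhibitors, line differences were -0.10 for NFKBIA, -0.23 for TNFAIP3 and -0.61 for NFKBIE, and the subunit gene RELB had responses of 1.31 and 0.49. SOD2, the mitochondrial superoxide dismutase, was at 262 against 556 TPM in Huh7 and level at 404 against 362 TPM in PLC/PRF/5. The sum of 4 leukocyte markers was at 9.17 against 10.8 TPM in Huh7 and at 27.5 against 13.4 TPM in PLC/PRF/5, nearly all of it CD68.

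Interferon response and antigen presentation genes had 16 of 34 considered, a median of 0.24 in Huh7, -0.18 in PLC/PRF/5 and -0.39 for the line difference, with 4 positive. IFITM3, a membrane protein that blocks virus entry, was at 95.7 against 141 TPM in Huh7 and 589 against 338 TPM in PLC/PRF/5, and OAS3, an RNA sensor, at 2.46 against 5.47 and 17.01 against 11.3 TPM. OAS3 passed the minimum in Huh7 through the knockdown library alone, so a positive Huh7 response was built in. HLA class I genes are polymorphic, and their values against a reference transcriptome are uncertain. IRF9, an interferon-activated factor, had a positive line difference (0.33).

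Of 13 genes of the EGF receptor family and its ligands, 7 were considered, 3 of them ligands, and these 3 were higher in both knockdowns. EREG was at 2.63 against 49.2 TPM in Huh7 and 44.1 against 188 TPM in PLC/PRF/5, and HBEGF at 5.16 against 8.77 and 2.11 against 6.58 TPM. EREG in Huh7 and HBEGF in PLC/PRF/5 passed the minimum through the knockdown library alone. AREG was at 6.89 against 54.9 TPM in Huh7 and 176 against 406 TPM in PLC/PRF/5. The receptor gene EGFR differed little (-0.14). Feedback inhibitors of the ERK pathway, which are switched on by ERK itself, differed between lines in both directions. SPRY4 was at 27.6 against 13.8 TPM in Huh7 and 13.5 against 22.4 TPM in PLC/PRF/5, SPRY1 at 30.9 against 11.4 and 30.1 against 36.3 TPM and DUSP6, an ERK phosphatase, at 139 against 122 and 36.1 against 74.4 TPM. DUSP5, the nuclear ERK phosphatase, was at 302 against 152 TPM in Huh7 and 12.2 against 21.1 TPM in PLC/PRF/5. These 4 were lower in the Huh7 knockdown and higher in that of PLC/PRF/5. The phosphatases DUSP4 and DUSP8 had negative line differences, with responses of 0.89 and 1.82 in Huh7 against -0.04 and 1.07 in PLC/PRF/5, and so did DUSP9, which lies outside the list (-2.26). The Sprouty-related SPRED1 and SPRED2 and the factors ETV4 and ETV5 had the same signs at a smaller size, with line differences of 0.47, 0.69, 0.20 and 0.57; in ETV4 the PLC/PRF/5 response was 0.01, which is below 0 after median-ratio scaling.

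Other genes in the list of ERK feedback and immediate early genes went the other way or moved in parallel. KLF4, a zinc finger factor, was at 1.21 against 6.94 TPM in Huh7 and 32.4 against 53.6 TPM in PLC/PRF/5.  It passed the minimum in Huh7 through the knockdown library alone, so a positive Huh7 response was built in. DUSP1, KLF5 and DUSP8 had line differences of -0.88, -0.79 and -0.75. FOSL1 and PHLDA2 were higher in both lines to a like extent (0.16 and -0.24), but FOSL1 also passed in Huh7 through the knockdown library alone. Over the whole list of 36, 30 were considered and the median line difference was 0.13, with 16 positive, 5 at least 2-fold above Huh7 and 1 below. At 5 TPM or more in all 4 libraries the median was 0.28.

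EGR1, an immediate early factor and the list's widest line difference, was at 23.7 against 16.99 TPM in Huh7 and 7.73 against 31.9 TPM in PLC/PRF/5, so that the lowest and the highest libraries were the arms of PLC/PRF/5. Its promoter is shown because serum response factor acts on EGR1 through CArG boxes. On the plus strand at chr5:138465229-138465478 (GRCh38.p14, RefSeq) it holds 2 matches to that box, in capitals.
EGR1: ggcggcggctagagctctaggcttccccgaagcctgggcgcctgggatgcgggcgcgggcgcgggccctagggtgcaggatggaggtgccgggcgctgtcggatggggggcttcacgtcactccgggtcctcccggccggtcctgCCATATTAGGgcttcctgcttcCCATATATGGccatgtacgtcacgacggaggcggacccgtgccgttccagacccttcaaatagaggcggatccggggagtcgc

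The CArG box was found in 394 of 27305 promoters (1.44%) and in 103 of 7634 genes considered (1.35%). Those 103 had a median line difference of -0.01, with 50 positive, close to the genes considered as a whole.

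Of 25 Wnt pathway genes, 10 were considered, with medians of -0.19 in Huh7, 0.36 in PLC/PRF/5 and 0.54 for the line difference, and opposite signs in 8. LGR5, the R-spondin receptor and a target of the pathway, was at 10.3 against 4.80 TPM in Huh7 and 4.86 against 15.98 TPM in PLC/PRF/5. It passed the minimum through the Huh7 control and the PLC/PRF/5 knockdown alone, and a gene that passes in this way has a positive line difference. RNF43 and ZNRF3, ubiquitin ligases that remove Wnt receptors, had line differences of 0.52 and 0.57, and TBX3, a T-box factor, 0.86. LGR4 and DKK3 were below Huh7 (-0.46 and -0.27). Thus both an inhibitor secreted outside the cell, DKK1, and a receptor, LGR5, stood above Huh7.

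**Figure D5:**
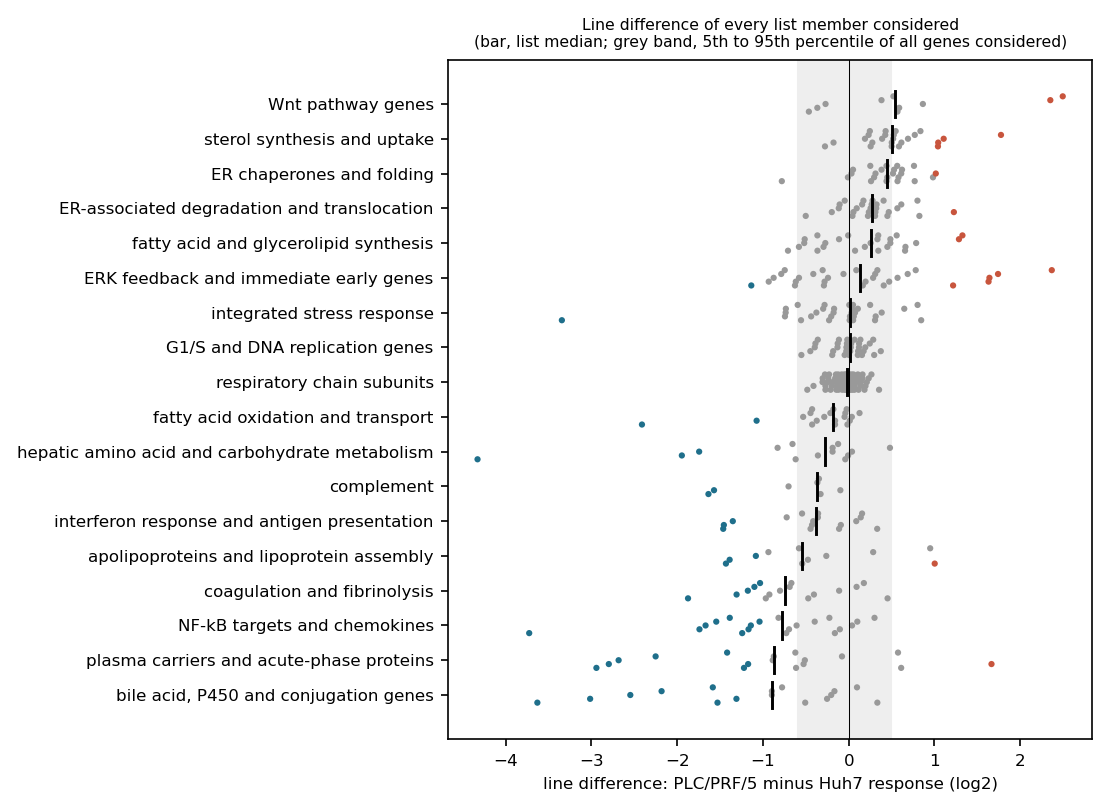
Line difference (PLC/PRF/5 minus Huh7, log2 units) of each gene considered in the gene lists described, 1 point per gene, with list medians as bars, genes past 2-fold in colour and a grey band from the 5th to the 95th percentile of all genes. Sterol and ER chaperone genes lie mostly above 0, with INSIG1 at 1.78, and plasma carriers, coagulation and conjugation genes mostly below, with AKR1C3 at -3.63.

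Matrix and adhesion genes differed in both directions, with a median of 0.12 over 19 of 49 genes, 3 at least 2-fold above Huh7 and 4 below. FN1 (fibronectin) was at 1439 against 1151 TPM in Huh7 and 348 against 568 TPM in PLC/PRF/5. ITGA5, a subunit of the fibronectin receptor, went the other way, at 28.2 against 106 TPM in Huh7 and level at 109 against 110.1 TPM in PLC/PRF/5. SPARC, a matrix protein, was lower in both (-2.55 and -0.82), and so was TGFB1 (-1.53 and -0.48), by more in Huh7. SPARC passed the minimum through the control libraries alone, and a gene that passes in this way is lower in both. Among 13 keratins and epithelial junction genes the median was -0.24, led by KRT23 and CLDN4 (-1.65 and -1.30). COTL1, an actin-binding protein outside the lists, was at 119 against 27.2 TPM in Huh7 and 19.5 against 24.7 TPM in PLC/PRF/5. YAP and TEAD targets had a median of -0.12 over 14 genes, with CYR61 higher in both lines (1.82 and 1.24). S100P, a calcium-binding protein of tumour cells, was at 496 against 642 TPM in Huh7 and 715 against 336 TPM in PLC/PRF/5, and MT2A, a metallothionein, at 448 against 846 and 22.6 against 20.8 TPM.

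Large housekeeping groups had few genes that differed 1.5-fold between lines. The 32 genes of G1/S and DNA replication ranged from -0.55 to 0.37, with medians of -0.14 in both lines, and the 28 of G2/M and mitosis from -0.24 to 0.48. The latter had medians of -0.26 in Huh7, -0.13 in PLC/PRF/5 and 0.12 for the line difference, with 19 positive. None of these 60 differed 1.5-fold between lines. The same held for 76 respiratory chain subunits (from -0.48 to 0.35) and 76 mitochondrial ribosomal proteins, and for 84 cytosolic ribosomal proteins with the exception of RPL39L (-0.71). Hypoxia and glycolysis genes had a median of -0.07 over 25 genes, and NDRG1, at 41.04 against 66.4 TPM in Huh7 and 34.4 against 8.62 TPM in PLC/PRF/5, was the only gene past 2-fold among them. p53 targets and apoptosis genes had a median of 0.03 (-0.02 after median-ratio scaling), with GADD45B the only gene past 2-fold (0.82 and -0.64).

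Some genes were at least 2-fold different in the knockdown of one line and within 1.2-fold of the control in the other. Higher in PLC/PRF/5 alone were 20 genes (0.202%), among them LRP8 and LCAT, the kinase PIM1, the forkhead factor FOXQ1 (26.2 against 24.9 TPM in Huh7, 29.8 against 68.2 TPM in PLC/PRF/5) and LEPR, the leptin receptor (10.4 against 10.9 and 6.93 against 24.9 TPM). Lower in PLC/PRF/5 alone were 17 (0.172%), with AHSG, FGB, APOC2, SERPING1 and CREB3L3 among them. After median-ratio scaling these classes held 13 and 32 genes. They also held DUSP9, an ERK phosphatase, at 333 against 394 TPM in Huh7 and 43.8 against 10.1 TPM in PLC/PRF/5, and CXCL16, a membrane-bound chemokine, at 60.8 against 66.6 and 334 against 162 TPM. Higher in Huh7 alone were 52 (0.525%), the largest class. It held CEBPD, SOD2, ITGA5 and CLDN4 and also ELF3, an epithelial factor (20.5 against 50.2 TPM in Huh7, 159.7 against 156 TPM in PLC/PRF/5), ANXA1 (annexin A1), AHR, the aryl hydrocarbon receptor, and CTSA, a lysosomal protease (122 against 247 and 237 against 225 TPM). In each gene named here from this class the Huh7 control was below both PLC/PRF/5 libraries, but not in all of the class. MATN3 and SEL1L3, for instance, were higher in the Huh7 control. Lower in Huh7 alone were 13 (0.131%), including DGAT1, SPRY1, A1BG, the proteoglycan VCAN (55.8 against 25.04 TPM in Huh7, 47.3 against 55.1 TPM in PLC/PRF/5) and DAB2IP, a Ras GTPase-activating protein. The filter fixed the direction of some genes named here. In PLC/PRF/5, LCAT and PIM1 passed the minimum through the knockdown library alone, and APOC2 and SERPING1 through the control alone. In Huh7, CLDN4 passed through the knockdown alone and A1BG through the control alone.

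Several of the widest line differences belong to gene copies whose reads cannot be assigned with certainty. SMN2 had the highest line difference of all (5.09), at 109 against 45.4 TPM in Huh7 and 0.29 against 17.6 TPM in PLC/PRF/5, and 98.0% of its 31-base words occur in another gene. Summed with SMN1, the values were 205 against 202 TPM in Huh7 and 43.1 against 52.3 TPM in PLC/PRF/5, a line difference of 0.30. SLX1B, second highest (3.16), had a line difference of -0.13 when summed with its copy SLX1A. SULT1A4, at 1.71, had -1.16 when summed with SULT1A3, the opposite sign. In each pair the single gene's value went with how reads were split between the copies, and none of these single-gene differences is relied on. ORM1, ORM2, SAA4, AKR1C2, GSTM1 and UBD also share over 50% of these words with another gene. At the TPM minimum itself, KLHDC10, SLC25A45 and UPK1B were just inside, deciding at 5.0 TPM, with line differences of 0.24, 0.05 and 0.69. BOLA3-AS1, DNAL1 and FAM161A were just outside at 4.98 TPM, with 0.62, -0.04 and 0.46.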

How the data were processed

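The authors deposited 1 table per library with TPM values by gene symbol. Per the submitters' processing notes, cutadapt, RSEM 1.2.21 and the hg19 build were used. Which aligner, gene annotation and strand setting were used is not given in the sources used here. Where reads match several genes, RSEM divides them by likelihood, so near-identical copies are uncertain, and TPM sets every library to the same total, so abundant genes move the rest. Depth is unknown.

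Responses were computed as log2((TPM + 1) ratio), a scale that understates the differences of low genes, for genes with at least 5 TPM in at least 1 library of each line. With 1 library per group the difference of differences leaves no residual, so nothing was tested. The comparison and the 37 gene lists were chosen with earlier results of these data known. Named genes were SCD, SCD5, ALB and AFP, the 15 highest and 15 lowest line differences, the genes 2-fold in opposite directions, the 10 per direction with the largest smaller opposite response, in each list the 6 widest members, all members where a list is described as a group, markers, and genes at the TPM minimum. A few genes named by this rule are not reported. Other genes in the text (the 1-line classes beyond these, SYNPO, PLS3 and the copies SMN1, SLX1A and SULT1A3) were chosen after their values were seen.

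Alternatives were pseudocounts of 0.1 and 5, median-ratio scaling, rescaling without the 20 most abundant genes, minimum TPM of 1 or 10, 5 TPM in all 4 libraries, no filter, and leaving out genes that share at least 50% of their sequence. Sharing is how many percent of a gene's 31-base words occur in another, measured for 1453 genes with GENCODE 29 transcripts, which are on another build and served for sequence only. Promoters (250 bases, GRCh38.p14) came from RefSeq, with 7634 of the 9901 symbols matched, and no coordinate was converted. The computation was tested on simulated data. Python 3.11.15, pandas 2.3.3, numpy 2.4.6 and matplotlib 3.10.9 were used.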

Additional observations from a re-analysis of the deposited data

Results flagged for a closer look

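The results for 5 genes stand out because a gene was at least 2-fold higher in one line's knockdown library and at least 2-fold lower in the other's. The line differences, PLC/PRF/5 minus Huh7 in log2 units, were -4.06 for IGFBP3, -3.63 for AKR1C3 and -3.34 for NUPR1, and 2.35 for DKK1 and 5.09 for SMN2. The last shares nearly all of its sequence with SMN1, and the sum of both copies had a line difference of 0.30. AKR1C3 and NUPR1 passed the minimum in Huh7 through the knockdown library alone, so a positive Huh7 response was built in.

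For gene lists the size rule was a median response of at least 0.15 in opposite directions. It was met by genes of sterol synthesis and uptake (median line difference 0.51), Wnt pathway genes (0.54), coagulation and fibrinolysis (-0.74), bile acid, P450 and conjugation genes (-0.90) and interferon response and antigen presentation (-0.39). None of these differences between lines was tested, since each group holds 1 library.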

How the results depend on the processing

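No paired analysis was possible because the labels give no replicate numbers and each group holds 1 library, and for the same reason no library could be left out. Of 221 values of 25 counts and list medians under the alternatives, 182 stayed within 1.5-fold of the reported value or, for a median, within 0.1 on the log2 scale, and 39 moved further. Within that tolerance 2 medians near 0 changed sign, both under median-ratio scaling: G1/S and DNA replication from 0.01 to -0.04, and the integrated stress response from 0.01 to -0.04. Of 164 values of 41 named genes, 153 stayed within 1.5-fold, 11 moved with the pseudocount and 0 changed sign. The 76 genes at least 2-fold above Huh7 became 42 with a pseudocount of 5, 148 with at least 1 TPM and 303 with no filter, and the 165 below became 101, 265 and 422, and 105 at 5 TPM in all 4 libraries. Median-ratio scaling gave 68 above and 184 below. The 5 genes 2-fold in opposite directions became 9 with a pseudocount of 0.1, 8 with median-ratio scaling (DKK1 was not among them), 15 with at least 1 TPM or no filter and 2 at 5 TPM in all 4 libraries. The 52 genes higher in Huh7 alone became 29 with a pseudocount of 5, 81 with at least 1 TPM, 34 at 5 TPM in all 4 libraries and 178 with no filter; the 20 higher in PLC/PRF/5 alone became 9 with a pseudocount of 5, 13 with median-ratio scaling and 83 with no filter. The 13 lower in Huh7 alone became 6 with a pseudocount of 5 and in all 4 libraries, 22 with at least 1 TPM, 7 with at least 10 TPM and 103 with no filter. The 17 lower in PLC/PRF/5 alone became 8 with a pseudocount of 5, 32 with median-ratio scaling, 10 with at least 10 TPM, 7 in all 4 libraries and 42 with no filter. Leaving out genes that share sequence was not run for these 1-line classes. Median line differences moved to 0.24 (at least 10 TPM) and 0.28 (all 4 libraries) for ERK feedback and immediate early genes, to -0.51 (all 4 libraries) and -0.25 (no filter) for conjugation enzymes, to -0.70 (at least 1 TPM) for complement and to -0.45 (at least 1 TPM, and also with no filter) for hepatic amino acid and carbohydrate metabolism. With no filter they were -0.11 for apolipoproteins, -0.48 for coagulation and -0.55 for plasma carriers. Looser filters test more and lower genes, and stricter ones fewer; the cause was not tested otherwise. TPM carries no depth, so counting error behind low values is unknown.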

Other observations

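Of the 814 genes with a mean of at least 200 TPM, 30 differed at least 2-fold between lines. Those below Huh7 included UCA1, a long non-coding RNA, at 136 against 203 TPM (control against knockdown) in Huh7 and 523 against 271 TPM in PLC/PRF/5, SERPINF1 (pigment epithelium-derived factor), at 339 against 427 TPM and 27.4 against 11.8 TPM, and UBD, a ubiquitin-like protein that shares sequence with another gene, at 123.5 against 400.1 TPM and 195 against 171 TPM. Above Huh7 were LYZ (lysozyme), at 1773 against 1008 TPM in Huh7 and 1744 against 2600.3 TPM in PLC/PRF/5, LAPTM4B, a lysosomal membrane protein, at 1018 against 357 TPM and 286 against 215 TPM, and NEAT1, the RNA of paraspeckles, at 84.4 against 124 TPM and 155 against 459 TPM. These genes were chosen after their values were seen.

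Median line differences were 0.22 for 15 IGF axis and oncofetal genes (3 past 2-fold), -0.17 for 27 autophagy and lysosome genes (1), 0.42 for 7 replication-dependent histones (1), -0.47 for 6 S100 genes (1), -0.89 for 3 metallothionein genes (1), -0.14 for 7 EGF receptor family genes (2) and 0.12 for 3 cancer-testis genes (0), where 2.43% of all genes considered were past 2-fold. Among the cancer-testis genes PAGE1 was higher in both knockdowns, with responses of 3.88 and 4.81. HMGA2, an oncofetal chromatin protein, was lower in the Huh7 knockdown (-0.96) and higher in that of PLC/PRF/5 (0.24).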
